A study of Mus musculus with 12 samples.

Results

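Recurrent background regions are places on the assembled mouse chromosomes where a control library and a chromatin immunoprecipitation (ChIP) library both gave a peak. They were found by pooling 12 deposited peak lists, keeping chromosomes 1 to 19, X and Y, and merging peaks that overlapped or touched. A merged region was kept if it held a peak from wild-type Ig, NLRP3 knockout Ig or wild-type input, and a peak from at least 1 of 8 ChIP lists. This gave 154 of 96507 merged regions. The regions were thus selected on the presence of peaks in 11 of the lists, and so presence in the lists, scores and widths are given below as descriptions with no test.

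The 12 libraries came from CD4 T cells of C57/Bl6j mice aged 7 weeks, wild-type or NLRP3 KO, with 1 library for each genotype and preparation. Naive cells from spleen and lymph nodes of both genotypes were cultured on plates coated for CD3 and CD28, all under 10 ng/ml of IL-4 plus a blocking antibody to interferon gamma, for a few hours. Chromatin came from 300000 cells, and the preparations in each genotype were antibodies to STAT6, NLRP3, IRF4 and BATF, an Ig antibody as nonspecific control, and input chromatin with no antibody. How the knockout allele was made and whether animals were pooled is not given in the sources used here. Peak lists hold no expression, so the labelled cell type could not be checked against marker genes. Each group held 1 library, so no difference between antibodies or genotypes can be set against replicate error.

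ChIP recovers DNA bound by a protein, but some DNA is recovered whatever the antibody. Input controls mark places where sheared chromatin itself gives many aligned reads, which is common where a repeat is present in more copies in the genome than in the assembly. An Ig control also carries what sticks to beads or antibody without specificity. Such places recur between unrelated ChIP experiments and are commonly removed with exclusion lists. STAT6 transmits the IL-4 signal that starts Th2 differentiation, IRF4 and BATF bind composite sites together in activated T cells, and NLRP3 is best known as a sensor of the inflammasome.

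The regions fell into a sparse and a near-complete set. Of the 154 regions, 48 were in 2 to 4 lists, 21 in 5 to 7 and 85 in 8 to 12, where 0.0891% of all merged regions were in at least 8 lists. The most common count was 10 lists, with 29 regions, and the median was 8 lists. All 8 ChIP lists had a peak in 43 regions and exactly 1 ChIP list in 20. Among ChIP regions with no peak in the 3 background lists, 0 were in all 8 ChIP lists, 1 was in 7 and 65416 were in 1. The size of the set depended on the rule. It held 71 regions with a minimum score of 100, 81 if at least 2 of the 3 background lists were asked for, and 239 if knockout input was accepted as background.

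**Figure D1:**
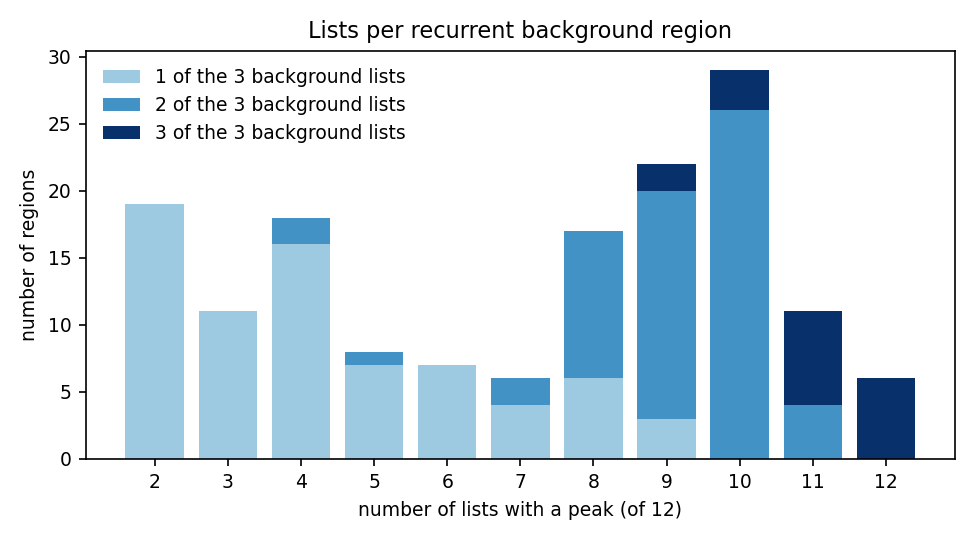
Number of regions (y axis) by the number of the 12 lists with a peak (x axis), with bar colours for how many of wild-type Ig, knockout Ig and wild-type input had a peak. The highest bar is 29 regions at 10 lists, and the regions in 2 or 3 lists had 1 background list each.

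More of the regions had a peak in immunoprecipitated lists than in input, which follows in part from the rule. The rule asks for a ChIP peak and names both Ig lists but only wild-type input. An Ig list had a peak in 148 of 154 regions and both Ig lists in 76, whereas wild-type input had one in 29 and 6 of these lacked Ig. Over all merged regions, 0.609% had a wild-type Ig peak, 0.344% knockout Ig, 0.448% wild-type input and 30.8% knockout input. The most frequent combination, in 24 regions, was all 8 ChIP lists and both Ig lists with neither input. A further 17 regions had these 10 lists and at least 1 input, so 41 regions were in every immunoprecipitated library. Wild-type Ig alone was the background list of 39 regions, with a median of 3 ChIP lists, and knockout Ig alone of 28 regions, with a median of 2. Where both Ig lists but not wild-type input had a peak, in 58 regions, the median was 7 ChIP lists, and with all 3 background lists, in 18 regions, it was 8.

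Wild-type and knockout counts were set side by side for each antibody. STAT6 had a peak in 112 of the regions in wild-type and 105 in knockout cells, where 3.08% and 0.263% of all merged regions had one. IRF4 had 118 and 113, where the background shares were 0.742% and 0.897%. BATF had 83 and 84, against background shares of 0.71% and 62.5%. The knockout BATF count depended on the rule. It was 138 when peaks within 1000 bp were merged and 150 when knockout input was accepted as background, where wild-type BATF had 80 and 84. For the NLRP3 antibody the counts were 111 in wild-type cells and 84 in cells labelled as knockout, against 0.507% and 0.573%. Ig had 118 and 106, against 0.609% and 0.344%, and wild-type input 29, against 0.448%. The rule asks for a peak in these lists, so the high counts follow in part from it and nothing is read from them.

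The overlap of the genotypes within the regions is a description, since the regions were chosen for peaks in these lists. For STAT6, 93 regions were in both lists, which is 83.0% of the wild-type and 88.6% of the knockout ones. For IRF4 95 regions were shared, or 80.5% and 84.1%, and for NLRP3 71, or 64.0% and 84.5%. BATF shared 57 regions, 68.7% and 67.9%, and Ig shared 76, 64.4% and 71.7%. Over all merged regions the shared numbers were 107 for STAT6, 3.61% of the wild-type and 42.1% of the knockout regions, 117 for IRF4, 16.3% and 13.5%, and 77 for NLRP3, 15.7% and 13.9%. They were 109 for BATF, 15.9% and 0.181%, and 77 for Ig, 13.1% and 23.2%. In cells labelled as knockout, where the protein should be missing, the NLRP3 antibody list had a peak in 84 regions. Of these, 71 had a wild-type NLRP3 peak and 13 did not. The rule uses this list, so nothing is read from the count. No test of the difference between genotypes was possible with 1 library each.

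Knockout input was the only control list that the rule did not use. It had a peak in 21 of 154 regions, 13.6% (exact Clopper-Pearson 95% interval 8.64 to 20.1, which covers counting error only). Over all merged regions the share was higher, 30.8%, and that set counts every knockout input region, with or without a ChIP peak. Among all regions with a ChIP peak, which the rule asks for, it was 0.161%. Most of these ChIP regions were the 60290 of knockout BATF. Among the 5741 regions with a peak in another ChIP list the share was 0.732%, against 14.4% (9.13 to 21.1), or 21 of 146, of the recurrent regions with such a peak. The comparison sets include the recurrent regions themselves. All these shares are not from replicate libraries and were not tested. Of the 21 regions, 14 had a knockout input score under 75 and 7 scored at least 100. In the whole knockout input list 29614 of 29708 regions scored under 75. The median width was 239.5 bp for the recurrent regions and 58 bp for ChIP regions with no background peak. Wider regions can meet more peaks by position alone, and the shares were not compared at equal width. Knockout input had a peak in 6 of the 13 regions present in all other 11 lists and in 2 of the 49 regions present in 2 to 4 of them. The regions with a wild-type input peak had a knockout input peak in 10 of 29 cases, 34.5% (17.9 to 54.3). Those without had one in 11 of 125 cases, 8.8% (4.48 to 15.2). Of the 403 wild-type input regions that met no ChIP peak, 5 had a knockout input peak, 1.24% (0.404 to 2.87).

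Each peak carries a score from the authors' caller, read here as 10 times the negative log10 of its p. It ranks peaks within its own list and was not scaled between libraries. The lists give no read counts, so depth is unknown and levels cannot be compared between libraries. A score of 3100 recurred as the highest in 9 of the 12 lists.

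The regions in the most lists also led the scores. All 6 regions in 12 of 12 lists ranked among the 7 highest of each ChIP and Ig list. Chromosome 2 positions 98506357 to 98507522 scored 3100 in all 8 ChIP and both Ig lists, and 1544 and 1368 in wild-type and knockout input. These were the highest scores of both inputs too. Its neighbour about 3 kb away, from 98502309 to 98503213, had lower values. Wild-type scores there were 2919.6 with STAT6, 2062 with NLRP3, 2828 with IRF4, 2235 with BATF and 2313 with Ig. The knockout scores were 2155, 2211, 2893, 1521 and 1828 in the same order. Input dropped away at this region, at 315 for wild-type and 55.96 for knockout. The first region ranked 1st in knockout input and the second 29435th of 29708, although both were among the 5 highest of each ChIP list.

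Chromosome 6 positions 103599012 to 103599305 scored 2588 with STAT6, 2205 with NLRP3, 2362 with IRF4, 1847 with BATF and 2072 with Ig in wild-type cells. Its knockout scores were 2054, 1960.3, 2432, 1461 and 1870.4, and its input scores 655 and 197. Chromosome 13 positions 77578133 to 77578336, the narrowest of the 6 at 204 bp, scored 1757, 1315, 1506, 1068 and 1006 in wild-type cells. The knockout scores were 937, 1092, 1644, 606 and 875, and the inputs 172 and 130.2. The other two, on chromosome 9 at 35112766 to 35113202 and on chromosome 12 at 3109828 to 3110154, scored at least 2891 in all 10 immunoprecipitated lists. Their input scores were 735 and 407 on chromosome 9, and 1027 and 685 on chromosome 12.

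Regions in 11 lists lacked 1 input each, and their scores were lower. Chromosome 9 positions 24346334 to 24346629 scored between 326 with knockout BATF and 1155 with wild-type IRF4, with Ig at 664 and 739 and wild-type input at 101. Chromosome X positions 139917520 to 139917676 scored between 292 with knockout BATF and 1125 with knockout IRF4, with Ig at 619 and 645. Its wild-type input score was 172. At chromosome 12 positions 68160108 to 68160935, which lacked wild-type input, ChIP scores ran from 278 with knockout BATF to 913 with knockout IRF4, with Ig at 495 and 377. Chromosome X positions 166527067 to 166527484 ran from 191 to 919, with Ig at 457 and 496. In these 4 regions knockout BATF had the lowest ChIP score, as it did in 31 of the 41 regions in every immunoprecipitated list. Scores were not scaled between lists, so a lower score need not mean less enrichment. Within its own list knockout BATF ranked these 4 regions 9, 11, 12 and 15 in the order given. The ranks in the other ChIP lists ran from 8 to 21. Knockout BATF was also the list most often missing alone, in 13 regions found in the other 9 immunoprecipitated lists.

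The other 7 regions in 11 lists had no ChIP score above 714. Chromosome 3 positions 56379313 to 56379749 scored 146 to 714 in ChIP lists, chromosome 8 positions 86280574 to 86280909 scored 72.0 to 379, and chromosome 1 positions 195053917 to 195054158 scored 56.7 to 295. Chromosome 9 positions 115259928 to 115260069 scored 60.05 to 201, and chromosome 18 positions 48170054 to 48170208 scored 128 to 312. Chromosome X positions 73843890 to 73844468 scored 58.6 to 459, and chromosome 16 positions 11143990 to 11144355 scored 60.05 to 313. In each of these 7, both Ig scores lay inside the range of the ChIP scores.

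**Figure D2:**
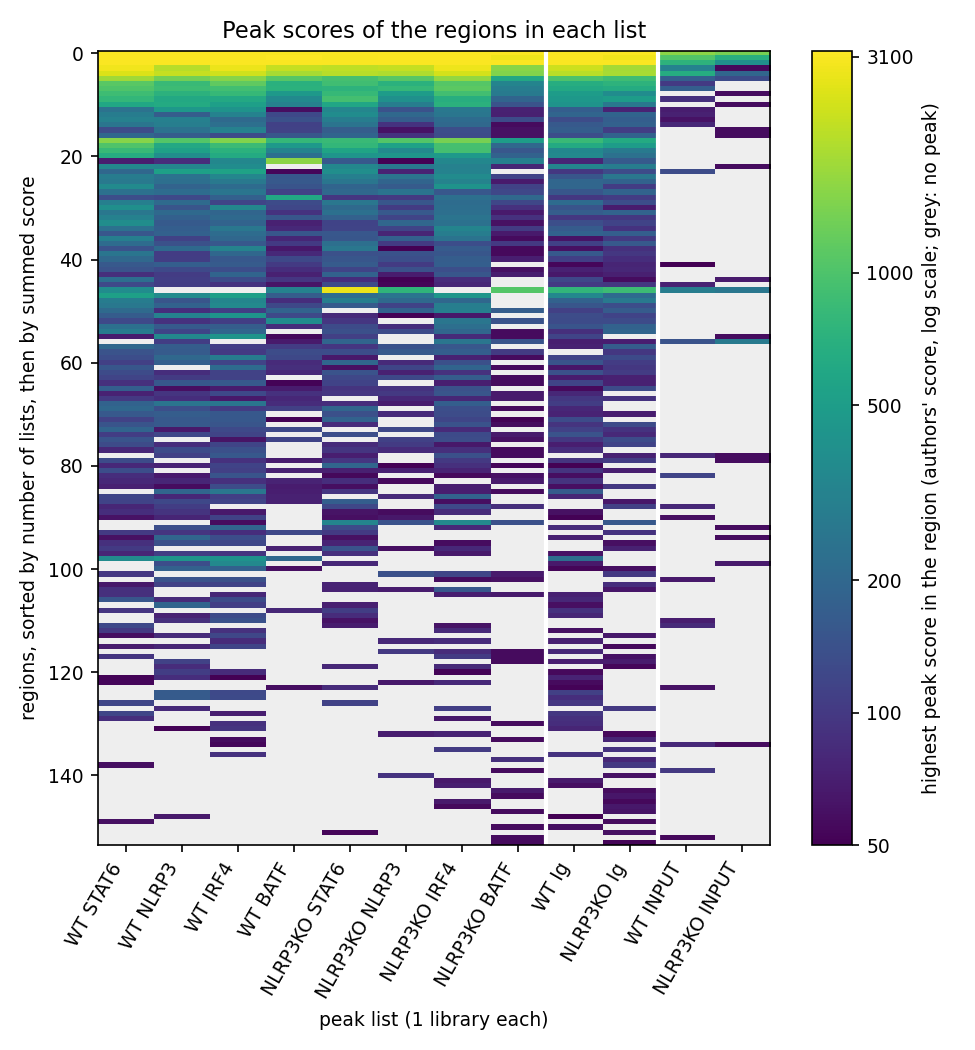
Scores of all 154 regions (rows, sorted by number of lists and then by summed score) in the 12 lists (columns), coloured on a log scale from 50 to 3100, with grey for no peak. The 8 ChIP and 2 Ig columns carry similar bands from the top downward, while the 2 input columns hold peaks in 29 and 21 rows.

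Among the highest-scored peaks of 6 ChIP lists nearly all were recurrent background regions. Of the 50 highest-scored peaks on assembled chromosomes, 49 lay in these regions for wild-type STAT6, wild-type NLRP3, knockout STAT6 and knockout IRF4, 47 for knockout NLRP3 and 46 for wild-type IRF4. These regions made up 3.77% of all wild-type STAT6 regions, 22.7% for wild-type NLRP3, 41.3% for knockout STAT6, 13% for knockout IRF4, 15.2% for knockout NLRP3 and 16.5% for wild-type IRF4. Wild-type BATF stood apart, with 22 of its 50 highest peaks, 44% (30.0 to 58.7), against 12.1% of its regions. In the Ig lists 49 and 50 of 50 lay in them, and in wild-type input 20 of 51, with a tie, against 20.1%, 31.9% and 6.71% of all their regions. In knockout BATF ties widened the highest 50 to 436 peaks, of which 34 lay in the regions. Of the 32 knockout BATF regions with a score of at least 100, 30 were recurrent background regions, against 0.139% of its list.

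The share rose with the score class in most lists. Of wild-type STAT6 regions scored 50 to under 75, 13 of 2289 or 0.568% (0.303 to 0.969) were recurrent background regions. The share was 43.2% (32.7 to 54.2) at 100 to under 200, 96.7% (82.8 to 99.9) at 200 to under 500, and 16 of 16 from 500 up. For wild-type IRF4 the shares were 1.78%, 60.2%, 90% and 17 of 17 in the same classes, and for wild-type NLRP3 2.18%, 75%, 94.7% and 15 of 15. Knockout IRF4 had 3.33%, 35.4% (25.9 to 45.8), 27 of 27 and 14 of 14. For wild-type BATF the share was 4.94% at 50 to under 75, 30.7% (21.3 to 41.4) at 100 to under 200, 32.1% (15.9 to 52.4) at 200 to under 500, and 11 of 14 from 500 up. Scores were not scaled between lists, so the same class need not mean the same enrichment in 2 lists.

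**Figure D3:**
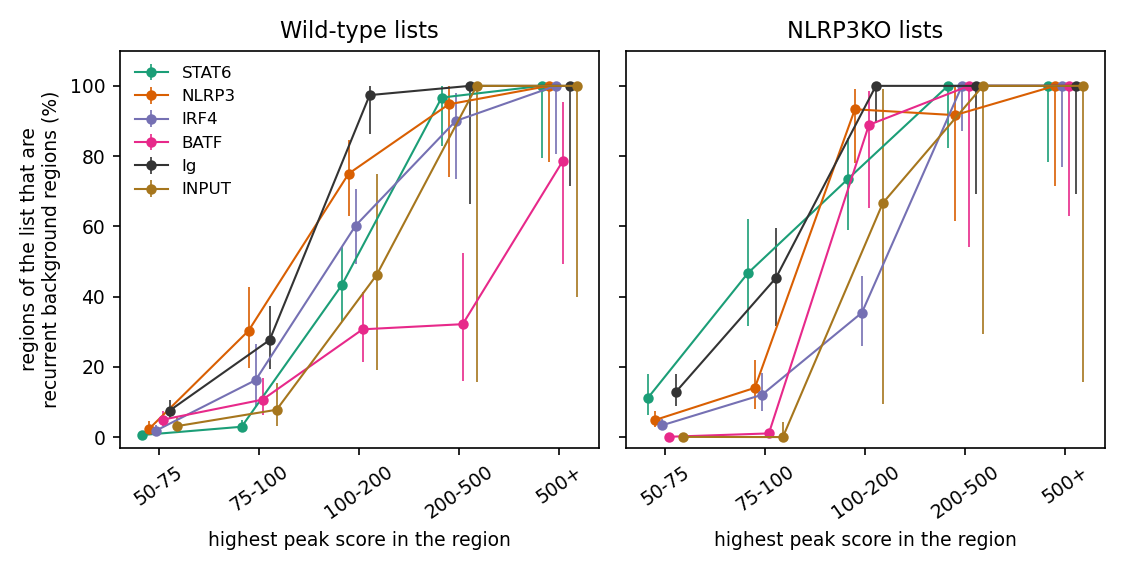
Share of a list's regions that are recurrent background regions (y axis, percent) by the highest score in the region (x axis), for wild-type (left) and knockout (right) lists, with exact Clopper-Pearson 95% intervals. Wild-type BATF stays near 32% at scores of 200 to under 500, where wild-type STAT6, NLRP3 and IRF4 lie between 90% and 96.7%.

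Scores in different libraries ranked the regions alike. Over the 45 pairs of the 10 immunoprecipitated lists, Spearman's rho of the scores across the regions present in both lists ran from 0.52 to 0.85, with a median of 0.70. Wild-type Ig and wild-type STAT6 had a rho of 0.78 over 97 regions, wild-type Ig and NLRP3 0.74 over 98, and the 2 Ig lists 0.75 over 76. The highest value, 0.85 over 79 regions, joined wild-type STAT6 and knockout NLRP3. The lowest, 0.52 over 75 regions, joined wild-type NLRP3 and wild-type BATF. Among pairs with BATF the highest was 0.83, for the wild-type and knockout BATF lists over 57 regions. Pairs of an immunoprecipitated list with an input ran from 0.32 to 0.85 over at most 25 regions. The regions compared all passed the same minimum score in both lists, and read depth, copy number and base composition were not measured. The values are a description and carry no p.

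BATF departed most from this shared order, at 2 regions on chromosome 17 that were chosen after their values were seen. BATF is an AP-1 family factor. At chromosome 17 positions 4626149 to 4626593 wild-type BATF scored 1554, the 6th highest region of its list, whereas wild-type Ig scored 76.9, STAT6 69.6 and NLRP3 84.8. Wild-type IRF4 scored 344 there. The knockout scores were 302 with BATF, rank 10, 344 with IRF4, 156 with STAT6, 50.3 with NLRP3 and 162 with Ig. At chromosome 17 positions 56339377 to 56339545 wild-type BATF scored 601, rank 13, against 98.7 for Ig, rank 59. Knockout BATF scored 204.5 there, rank 14, against 104 for knockout Ig, rank 51. IRF4 scored 180.0 and 227 in wild-type and knockout cells. Among the 41 regions in every immunoprecipitated list, these ranked 6th and 11th in wild-type BATF, where their median ranks over the 10 lists were 29 and 34.5. Chromosome 2 positions 60240807 to 60240936, in 9 lists, also had wild-type BATF at 375, rank 19, beside Ig at 129.6, rank 45. Its knockout BATF score was 144, rank 21. None of the 3 had an input peak.

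**Figure D4:**
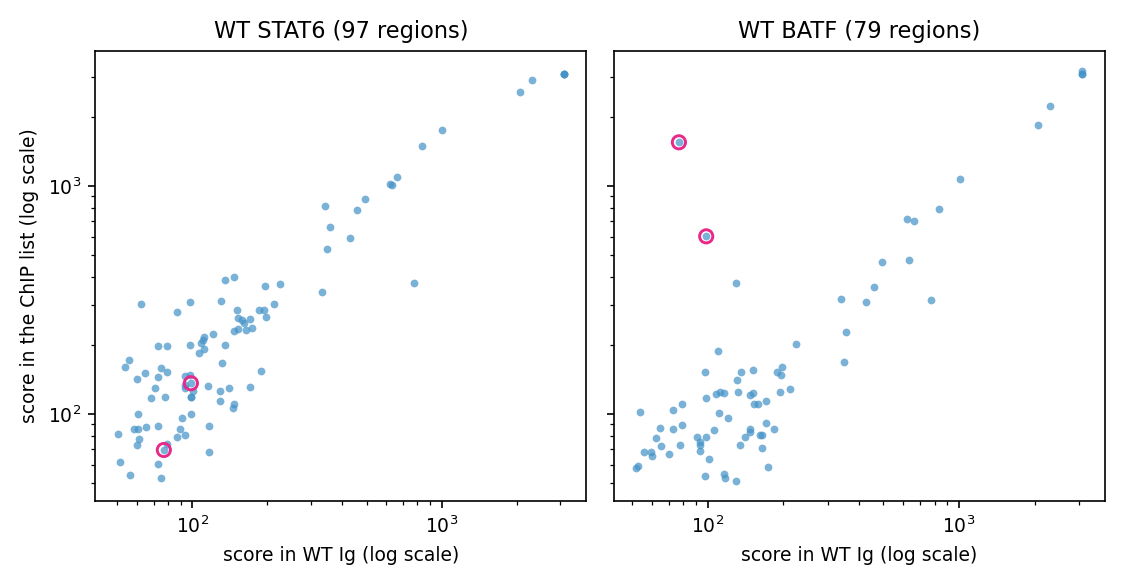
Score in wild-type Ig (x axis, log scale) against the score in wild-type STAT6 (left, 97 regions) and wild-type BATF (right, 79 regions), 1 point per region with a peak in both. The 2 circled regions on chromosome 17 lie above the points of similar Ig score in the BATF panel, at 1554 and 601, and within the cloud in the STAT6 panel.

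The width of the merged regions had a median of 239.5 bp, with quartiles at 154 and 377 bp, where the median was 102 bp for background regions with no ChIP peak and 58 bp for ChIP regions with no background peak. Median width was 177 bp in 2 to 4 lists, 284 bp in 5 to 7 and 268 bp in 8 to 12. Merging more peaks can by itself widen a region, and widths were not compared at an equal number of peaks. The median ratio of a region's width to its widest single peak was 1.03 and the highest 1.74. In all 154 regions a background peak and a ChIP peak themselves shared at least 1 bp. In the 85 regions of at least 8 lists the centres of all peaks lay within a median of 53.5 bp of each other, with an upper quartile of 150.5 bp and a maximum of 34714 bp. They lay within 50 bp in 40 regions and farther apart in 45. Peaks had to overlap to be merged, so near centres follow in part from the rule. Of these 85, 67 held 1 peak per list and a stretch common to all of them, with a median length of 66 bp.

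A few regions were far wider. Of the 154, 8 exceeded 1000 bp. Chromosome 9 positions 2999986 to 3038417, at 38432 bp, lay at the first position of any list on its chromosome. Wild-type STAT6 covered all of it with a single peak. It scored 2851 in knockout STAT6, rank 4, but 377 in wild-type STAT6, rank 19, and had no peak in wild-type NLRP3, wild-type IRF4 or knockout IRF4. Ig scored 772 and 862 there and input 293 and 262. Chromosome 17 positions 13743526 to 13746031, at 2506 bp, was in 8 lists with ChIP scores of 50.9 to 184. Chromosome 11 positions 3000805 to 3003078, at 2274 bp, was in 6 lists. Among the 14 regions with more than 1 peak from the same list, a merged region may hold several separate places.

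**Figure D5:**
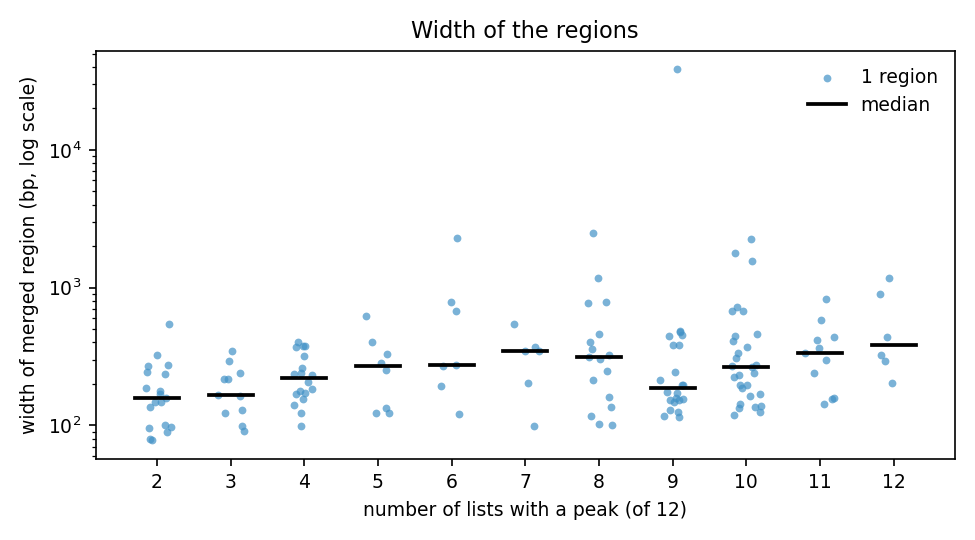
Width of each merged region (y axis, bp, log scale) by the number of lists with a peak (x axis, spread sideways for clarity), with black bars at the medians. The region of 38432 bp lies alone at 9 lists. The medians do not rise steadily, with 158 bp at 2 lists, 345.5 bp at 7, 185.5 bp at 9 and 382 bp at 12.

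A few regions had peaks almost only in the lists of 1 genotype. Of the 5 immunoprecipitated lists in each genotype, 104 of the 154 regions had counts that differed by at most 1 list. In 5 regions 4 or 5 wild-type lists but at most 1 knockout list had a peak, and in 3 regions the reverse held. Counting every region, 10 had immunoprecipitated peaks in wild-type lists only and 13 in knockout lists only. The same counts were not made over all merged regions, where the genotypes shared smaller percentages for each antibody, as given above. The counts are thus not read as a genotype pattern. Chromosome 6 positions 103264572 to 103264705 scored 371 with STAT6, 440.2 with NLRP3, 418 with IRF4, 203 with BATF and 224 with Ig in wild-type cells. It had no peak in any of the 6 knockout lists, nor in wild-type input. Chromosome 2 positions 124687656 to 124687811 scored 153, 81.6, 130.3 and 79.3 with wild-type STAT6, NLRP3, IRF4 and Ig, and had no knockout peak. In the opposite direction, chromosome 11 positions 3000805 to 3003078 scored 333 with STAT6, 144 with NLRP3, 356 with IRF4, 138 with BATF and 158 with Ig in knockout cells. Its only wild-type peak was IRF4, at 56.8. On chromosome 10, the region from 37540221 to 37540344 had knockout scores of 141 for NLRP3, 119.6 for IRF4, 67.0 for BATF and 99.2 for Ig, and 97.9 with wild-type STAT6. Ig did not follow the other antibodies everywhere. At chromosome 16 positions 17222203 to 17222486, with NLRP3, IRF4 and BATF peaks in wild-type cells alone, the Ig scores were 52.8 for wild-type and 58.5 for knockout. Whether genotype, animals or handling set these patterns cannot be told apart.

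Chromosome 11 positions 108872933 to 108873388 had 2 high scores, both in wild-type cells. Wild-type IRF4 scored 440.5 and wild-type NLRP3 353 there, beside wild-type Ig at 117, STAT6 at 68.1 and BATF at 54.8. Knockout STAT6 scored 110.6, IRF4 82.6 and BATF 56.7. The NLRP3 antibody had no peak there in knockout cells. Wild-type Ig was its only background list among the 3 of the rule, and knockout input scored 57.4.

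On chromosome Y the region at 2652194 to 2652337 scored 344 with STAT6, 331 with NLRP3, 376 with IRF4 and 332 with Ig in wild-type cells. Wild-type BATF had no peak there, and its list held 0 peaks on chromosome Y. In knockout cells the scores were 343 with STAT6, 264 with NLRP3, 311 with IRF4, 289 with Ig and 78.6 with BATF, where the last ranked 438. The other lists held 1 to 13 peaks on Y, except wild-type input with 0.

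The regions were spread over all 21 chromosomes with small local groups. Chromosome 2 held 14, chromosomes 3, 12, 13 and 16 held 11 each, and chromosome 15 held 1. Over the span covered by peaks this was 5.98 regions per 100 Mb in all, from 1.00 on chromosome 15 to 11.6 on chromosome 16 among the chromosomes other than Y. Within 10 kb of another such region lay 15 of the 154, or 9.74%, within 100 kb 19, or 12.3%, and within 1 Mb 36, or 23.4%. The background shares were 8.74%, 21.4% and 59.9% for the 1098 background regions with no ChIP peak. At 10 kb the 2 shares were similar in size, and at the longer distances that of the recurrent regions was lower. The background regions are denser, so the shares are not comparable at any of these distances, 10 kb included. Nothing is read from them for or against local grouping. Without the wild-type Ig list 10 regions had a neighbour within 100 kb. With a minimum score of 100 the count was 5, and with at least 2 of the 3 background lists it was 3.

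The megabase bins with the most regions held 4 regions on chromosome 2 between 98502309 and 98507522, 4 on chromosome 2 between 181652026 and 181666263, and 3 on chromosome 11 between 3000004 and 3098731. The first group held 2 of the regions in 12 lists, with 1 region in 9 lists and 1 in 4 lists between them. The region in 9 lists, at 98503792 to 98504264, scored 531 with wild-type STAT6 and 169 with wild-type BATF. The region in 4 lists, at 98505012 to 98505390, had no score over 84.3. The second group lay within 51467 bp of the last position of any list on chromosome 2. It was weaker, in 4 or 8 lists, with 148 in wild-type IRF4 as its highest score. Wild-type input scored 117 and 82.3 at 2 of its members. The third group lay at the first positions of chromosome 11. Mouse chromosomes have their centromere at the start of the numbering. In all, 11 regions began within 1 Mb of the first position on their chromosome and 12 ended within 1 Mb of the last, 2 of these on chromosome Y, whose span was 1.33 Mb. The first Mb of each chromosome together made up 0.815% of the span covered by peaks. All merged regions at the chromosome ends were not counted, so nothing is read from these counts.

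The 20 regions with 1 background and 1 ChIP list stood just inside the rule. Their background scores ran from 50.7 to 99.65, with a median of 61.8, and their ChIP scores from 53.0 to 103, with a median of 59.5. Knockout BATF was the ChIP list in 8 of them and knockout IRF4 in 5. Of all 65813 regions with a ChIP peak, 60290 had a knockout BATF peak and 866 a knockout IRF4 peak. An example is chromosome 12 positions 45506140 to 45506217, the narrowest region at 78 bp, with 99.65 in wild-type input and 56.7 in knockout BATF. Just outside were 1098 background regions with no ChIP peak, whose scores ran from 50.1 to 130.8 with a median of 60.6. Of these, 1 was in 2 of the 3 background lists, at chromosome 3 positions 96646077 to 96646248, with 73.1 and 59.6 in wild-type and knockout Ig. On the other side lay chromosome 6 positions 132413697 to 132413916, the only region in at least 8 lists outside the set. It scored 633 with wild-type BATF and 228 with wild-type IRF4, and had peaks in 7 ChIP lists and in knockout input, at 57.4.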

How the data were processed

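Per the file headers, MACS run in Galaxy made 1 list of peaks per library. The reads had been aligned with Bowtie2, per the submitters' processing notes. Neither the MACS version nor its cut-off or control library is given in the sources used here. The deposited score of a peak, made by the authors' caller, was at least 50.04 in every list, and the lists hold no depth. The notes name mm8, but the peaks of chromosomes 5 and 7 end at 152493651 and 152397321, which these chromosomes do not reach in that build, and on 10 of 21 chromosomes they run past the last RefSeq gene of GRCm38. The build is thus uncertain, positions are printed as deposited and counted from 1, and genes, repeats and sequences at the regions were not analysed here.

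Of 99986 peaks, 97943 on assembled chromosomes were merged in Python 3.11.15 with numpy 2.4.6 and scipy 1.17.1. A region's score in a list is that of its highest peak there. The code was tested on simulated lists. The regions named are those in the most lists until 15 were reached, the 3 widest, the highest of each list, the highest in 1 background list alone, and the 3 megabase bins with the most regions; the others were chosen after their values were seen. The regions and rules were chosen with earlier results of these data known. Alternatives were a minimum score of 100, merging within 1000 bp, other sets of background lists, direct overlap, and each list left out in turn.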

Additional observations from a re-analysis of the deposited data

How the results depend on the processing

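With a minimum score of 100 in every list there were 71 regions, 38 in at least 8 lists, 5 with a neighbour within 100 kb, 7 with a knockout input peak and 406 region and ChIP list pairs, where the main values were 154, 85, 19, 21 and 810. Fewer peaks enter by construction. Accepting knockout input as background gave 239 regions, 106 of them with a knockout input peak. Asking for at least 2 background lists gave 81 regions and 3 with a neighbour within 100 kb. The number of highest-scored peaks that lay in the regions, 345 summed over the 8 ChIP lists, stayed within 1.5 times under these alternatives, from 304 to 350. Knockout BATF entered the main value with 34 of 436 tied peaks. It had 32 regions scored at least 100, so fewer of its peaks were taken at that minimum. Leaving out each list in turn gave 115 to 154 regions, 67 to 83 in at least 8 lists, 17 to 21 with a knockout input peak, 662 to 810 pairs, 296 to 345 among the highest peaks and 10 to 19 with a neighbour within 100 kb, the lowest of the last without wild-type Ig. A left-out ChIP list takes its own count out of the 2 sums, and at least 8 lists is then out of 11. These ranges thus fall in part by construction. Merging within 1000 bp, the 2 Ig lists alone and direct overlap moved none of these counts by more than 1.5 times. No paired analysis was possible because each group held 1 library. The lists hold no read counts, so how depth limits these counts is unknown.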
